A study of Homo sapiens with 6 samples.

Results

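Metallothioneins and the genes of zinc export around them were followed as 9 genes of 41768 in the table. They comprised the metallothioneins MT2A, MT1E, MT1X, MT1F, MT1M and MT1G, the metallothionein pseudogene MT1L, the zinc exporter SLC30A1 and the zinc-sensing transcription factor MTF1. The genes were chosen by name from the metallothionein cluster and zinc export, with earlier results of these data known, among them the high MT1L of PANC-1. Differences between the lines are therefore given for these 9 genes as a description, with no test.

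Metallothioneins are small cysteine-rich proteins that bind zinc, copper and cadmium through the sulphur of their cysteines. They buffer free zinc in the cell. When free zinc rises, MTF1 binds metal response elements in the promoters of metallothionein genes and of SLC30A1, and switches them on. SLC30A1, also called ZnT1, sits mainly in the plasma membrane and moves zinc out of the cell. In the pancreas, zinc is used in quantity by acinar and islet cells.

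The data were 6 RNA sequencing libraries from 2 human pancreatic ductal adenocarcinoma (PDAC) cell lines. Each line, called 90 and PANC-1 (an established PDAC line), was represented by 1 NC library and by a pair numbered siALDOA 1 and siALDOA 2. The letters si were taken to mean small interfering RNA, here against the glycolytic enzyme aldolase A. The labels do not explain the names 90 and NC, nor do they tell whether the numbers mark 2 siRNA sequences or repeated treatments. No other treatment, and no added metal, is named in the labels. No label says that libraries came from separate cultures, so errors and p-values cover the spread among these 6 libraries alone, and that spread may be technical. Each line is 1 cell population, so a difference between lines is a difference between 2 lines only. Values by line are given in the order NC, siALDOA 1, siALDOA 2 throughout. They are FPKM, the fragments of a gene divided by its length in kilobases and by the library's fragments in M (mega). Levels of different genes are set side by side on this scale, which depends on gene lengths that are not given.

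Depth recovered from the values was 17.7 to 21.8 M fragments per library, and 3 fragments on a gene of 1 kb correspond to 0.138 to 0.17 FPKM. The targeted gene ALDOA was at 36.1% and 43.8% of NC with siALDOA in the 90 line, and at 55.3% and 51.0% with it in PANC-1. All 6 epithelial markers reached a mean of 1 FPKM, and none of the acinar, islet or erythroid markers did, with insulin listed at 0. Of 5 leukocyte markers CD68 alone reached 1 FPKM, of 5 fibroblast markers COL1A1 alone, and of 3 endothelial markers CDH5 alone. The 4 mesenchymal markers summed to 606 to 814 FPKM in the 90 line and to 1989 to 2328 FPKM in PANC-1. In a culture, fewer cells with a transcript and less of it per cell cannot be told apart.

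The metallothioneins of this cluster differ little in their coding sequence. Each has 3 coding exons and 61 codons, of which 20 (32.8%) are cysteine codons. The coding sequences of 5 members are shown because these genes are alike and the split of the signal between them is uncertain. They are from GENCODE v29 on GRCh38, 5′ to 3′ and without the stop codon, and capitals mark the cysteine codons TGC and TGT.
MT2A: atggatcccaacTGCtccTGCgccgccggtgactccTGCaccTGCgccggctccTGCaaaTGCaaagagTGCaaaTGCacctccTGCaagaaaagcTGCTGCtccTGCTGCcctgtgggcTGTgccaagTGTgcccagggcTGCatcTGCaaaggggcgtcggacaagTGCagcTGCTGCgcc
MT1E: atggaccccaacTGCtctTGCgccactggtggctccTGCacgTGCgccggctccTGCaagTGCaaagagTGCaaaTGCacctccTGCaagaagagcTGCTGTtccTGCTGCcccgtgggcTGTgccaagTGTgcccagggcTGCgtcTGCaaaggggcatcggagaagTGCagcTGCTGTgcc
MT1X: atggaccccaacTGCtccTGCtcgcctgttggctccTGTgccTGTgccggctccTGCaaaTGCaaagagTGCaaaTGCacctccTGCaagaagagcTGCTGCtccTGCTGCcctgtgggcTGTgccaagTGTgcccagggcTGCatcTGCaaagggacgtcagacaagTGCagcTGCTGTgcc
MT1M: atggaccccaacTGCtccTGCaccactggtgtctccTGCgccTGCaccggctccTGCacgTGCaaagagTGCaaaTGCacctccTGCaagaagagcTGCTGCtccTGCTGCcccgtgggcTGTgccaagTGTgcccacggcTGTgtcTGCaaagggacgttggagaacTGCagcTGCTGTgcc
MT1G: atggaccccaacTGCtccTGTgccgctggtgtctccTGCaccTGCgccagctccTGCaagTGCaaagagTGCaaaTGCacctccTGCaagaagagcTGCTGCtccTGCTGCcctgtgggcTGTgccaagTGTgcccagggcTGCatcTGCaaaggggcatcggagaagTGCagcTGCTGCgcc
MT2A and MT1G are the closest pair of the 6 coding members, with 95.1% identical bases and 9 of 183 different. MT1F and MT1X are the most distant pair, at 88.5% and 21 different bases. MT2A and MT1E differ at 14 bases. Over the longest transcript, the share of stretches of 50 bases found in another gene too was 14.7% for MT1X, 14.3% for MT1G, 10.6% for MT1E, 7.05% for MT1M, 4.68% for MT2A, 4.42% for MT1L and 0.0656% for MT1F. At 100 bases only MT1X kept any, 7.68%, and the other 6 had 0. At both lengths MT1X shared the most stretches with AC026461.1, which is outside the 9 genes. No label gives the read length or says how reads matching several genes were treated, so the split between the metallothionein genes carries that uncertainty.

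MT2A, the main metallothionein of most human tissues, was the most abundant member in every library. The gene lies on the plus strand of chr16:56608199-56609497 (GRCh38). Its levels in the 90 line were 2064, 1727 and 2231 FPKM. The PANC-1 values were 2981, 2483 and 1905 FPKM in the same order. The lines overlapped, with means of 2007 ± 257 and 2456 ± 539 FPKM (SD, n = 3 each). Among all 41768 genes MT2A ranked 27th or 28th in the libraries of the 90 line, and 9th, 14th and 17th in PANC-1.

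MT1E, a metallothionein of the same cluster (chr16:56625475-56627112, plus strand), was the next most abundant coding member. Its levels were 280, 217 and 245 FPKM in the 90 line, and 296, 266 and 239 FPKM in PANC-1. Both lines covered much the same range, with means of 247 ± 31.7 and 267 ± 28.8 FPKM (SD, n = 3 each). The line difference was 0.11 on the log2(FPKM + 1) scale (SE 0.113), and -0.02 after median-ratio scaling, so it had no stable direction.

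MT1X and MT1F stood higher in the 90 line, with no overlap between the lines. MT1X (chr16:56682424-56684196, plus strand) had 79.8, 84.3 and 70.5 FPKM in the 90 line, against 27.8, 29.6 and 27.3 FPKM in PANC-1. The mean was 78.2 ± 7.05 FPKM in the 90 line and 28.3 ± 1.17 in PANC-1 (SD, n = 3 each), 2.77-fold higher in the 90 line. MT1F (chr16:56657694-56660698, plus strand) had 9.82, 12.0 and 14.8 FPKM in the 90 line and 4.73, 2.80 and 1.21 FPKM in PANC-1. Its means were 12.2 ± 2.48 and 2.91 ± 1.76 FPKM (SD, n = 3 each), 4.19-fold higher in the 90 line. The lowest MT1F value, in siALDOA 2 of PANC-1, corresponds to between 7.17 and 42.8 fragments, depending on the gene length used.

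MT1L and MT1M stood higher in PANC-1, again with no overlap. MT1L (chr16:56617476-56618818, plus strand) is annotated as a transcribed unprocessed pseudogene, a copy that makes RNA but is not annotated as protein coding. It stood at 411, 500.2 and 430.4 FPKM in PANC-1, and at 0.528, 0.602 and 0.123 FPKM in the 90 line. With the annotated length of 411 bases these values correspond to 3478, 4482 and 3308 fragments in PANC-1 and to 4, 5 and 1 in the 90 line. In FPKM, MT1L was thus the second most abundant of the 9 genes in each PANC-1 library and near its detection limit in the 90 line. Of the sum of MT1L and MT1E in FPKM, MT1L made up 58.1%, 65.3% and 64.3% in PANC-1 and 0.0504% to 0.277% in the 90 line. Rank and share depend on the lengths used for the FPKM, which are not given. MT1E has 729 bases in its longest transcript and 1052 over all its exons, against 411 for MT1L.

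MT1M (chr16:56632233-56633986, plus strand) was listed at 0 in all 3 libraries of the 90 line. The PANC-1 libraries had 8.04, 8.12 and 7.88 FPKM, a mean of 8.01 ± 0.118 (SD, n = 3), which corresponds to at least 34.2 fragments in each library at the shortest annotated transcript. MT1G (chr16:56666731-56668065, minus strand), the closest in coding sequence to MT2A, was listed at 0 in all 6 libraries. MT1L and MT1M passed the filter of a mean of 1 FPKM only through PANC-1, so their passing says nothing of the 90 line.

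**Figure D1:**
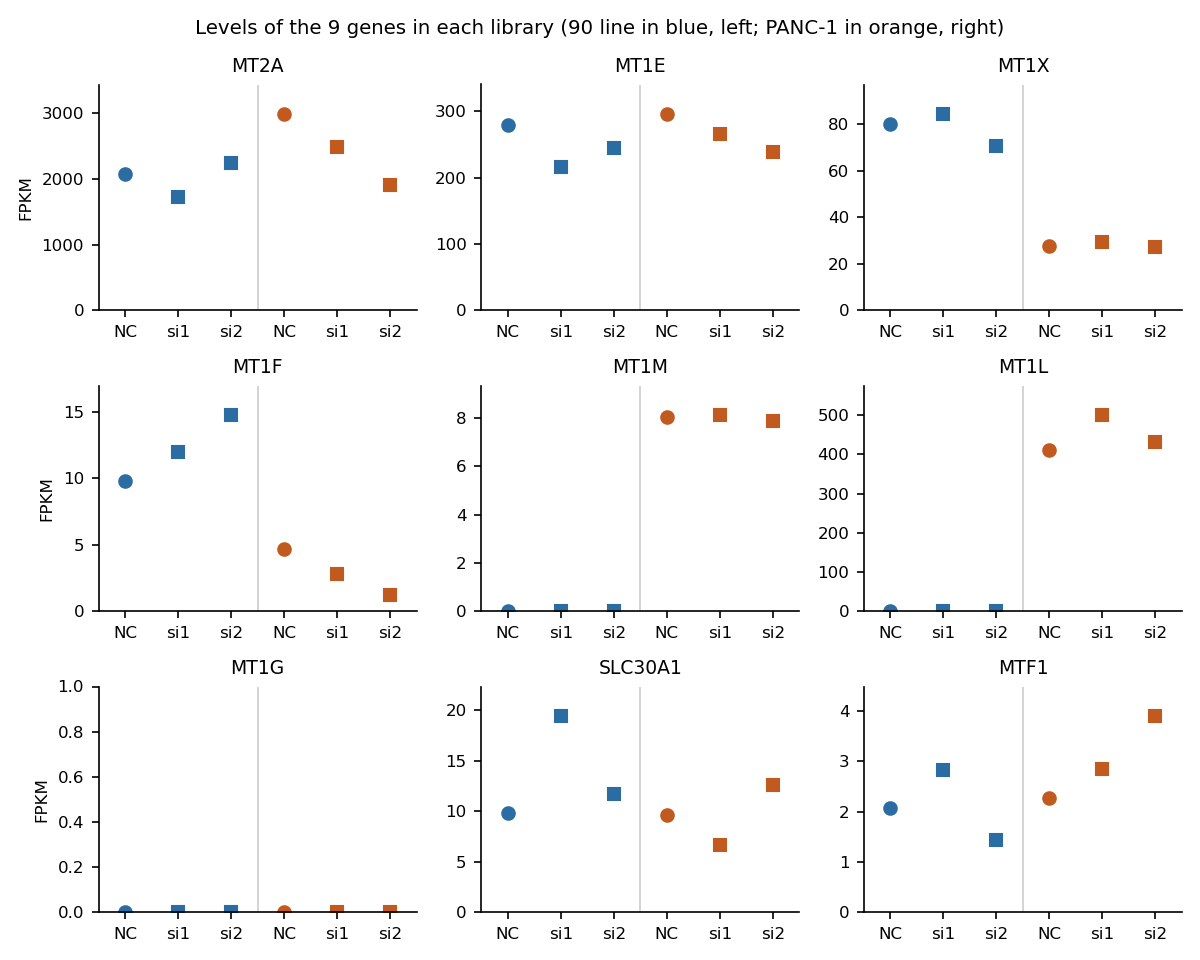
FPKM of each of the 9 genes in the 6 libraries, 1 panel per gene with its own linear axis from 0. Each point is 1 library, a circle for NC and a square for siALDOA, with the 90 line in blue on the left and PANC-1 in orange on the right. MT1L and MT1M are present in PANC-1 and near or at 0 in the 90 line, MT1X and MT1F are higher in the 90 line, and MT1G is at 0 throughout.

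Of the 9 genes, 2 lay wholly higher in PANC-1 and 2 wholly lower, where 29% and 25.1% of the 12592 tested genes did so. With limma and an adjusted p under 0.05, 20.4% of tested genes were called higher in PANC-1 and 18.4% lower. These shares are given as background, and nothing is read from the members' count, since the members were picked with this contrast known. The lines overlapped for MT2A, MT1E, SLC30A1 and MTF1.

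The 6 coding metallothioneins together made up 2434, 2040 and 2561 FPKM in the 90 line, and 3318, 2789 and 2180 FPKM in PANC-1. The lines overlapped in this sum, with means of 2345 ± 272 and 2762 ± 570 FPKM (SD, n = 3 each). It was 0.422% to 0.480% of all FPKM in the 90 line and 0.458% to 0.627% in PANC-1. MT2A held 84.7% to 87.1% of the sum in the 90 line and 87.4% to 89.9% in PANC-1. MT1E held 9.55% to 11.5% and 8.92% to 10.9%. MT1X held 2.75% to 4.13% in the 90 line and 0.839% to 1.25% in PANC-1. The ratio of MT2A to MT1X was accordingly 20.5 to 31.7 in the 90 line and 69.6 to 107 in PANC-1. The total of the coding genes thus overlapped between the lines while the share of MT1X did not. In FPKM as deposited, the overlap depended on leaving out the pseudogene MT1L. With MT1L added, the highest sum of the 90 line was 2561.3 FPKM and the lowest of PANC-1 was 2610 FPKM. These lie close together, and the sum with MT1L was not formed on another scale. Median-ratio scaling of the coding sum alone moved siALDOA 2 of the 90 line to 2954 and siALDOA 2 of PANC-1 to 1893.7.

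**Figure D2:**
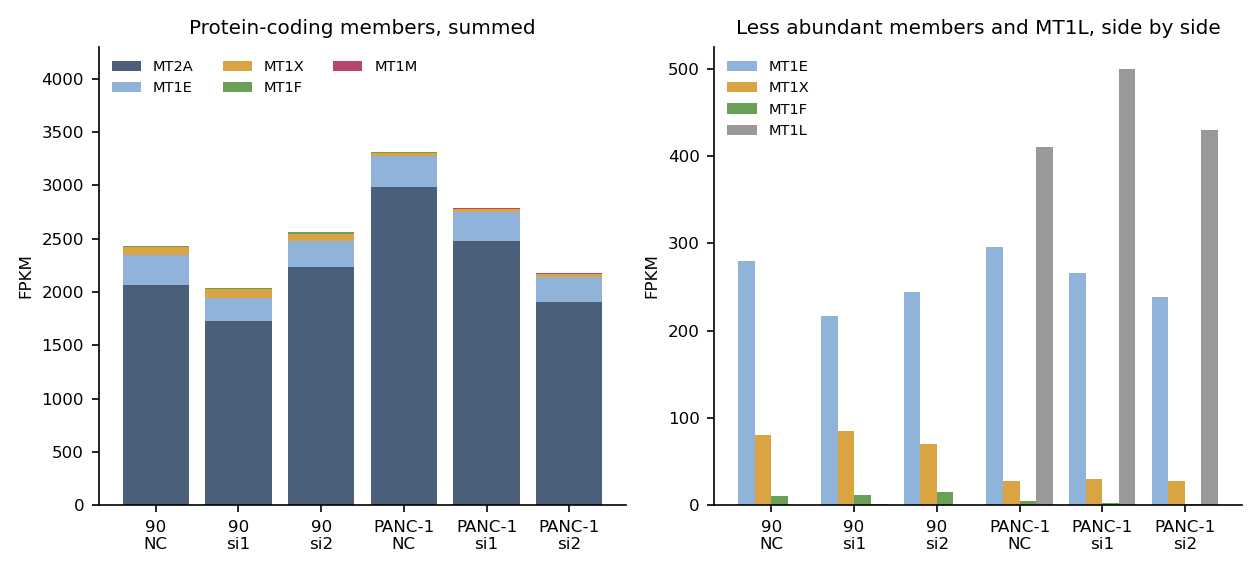
FPKM per library, with the coding members stacked to their sum on the left and the less abundant members and MT1L side by side on the right; both axes are linear from 0. MT2A fills most of every bar, and MT1L exceeds MT1E in the 3 PANC-1 libraries alone.

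The metallothionein genes in the table span 119.1 kb of chromosome 16 (RefSeq), and the direction of the line difference varied along it. Counted between RefSeq gene starts, which differ from the GENCODE v29 starts given with each gene, MT1L begins at 8.88 kb from MT2A, MT1E at 17.2, MT1M at 24.1, MT1A at 30.1, MT1F at 49.4, MT1G at 58.1 and MT1X at 73.9 kb. The genes higher in PANC-1, MT1L, MT1M and MT1A, lie between MT2A and MT1F, with MT1E among them. The genes higher in the 90 line, MT1F and MT1X, lie further on.

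MT1A, a coding metallothionein outside the 9 genes, was the only one of 10 further metallothionein genes that reached the filter. It had 5.54, 4.92 and 6.50 FPKM in the 90 line and 107, 94.2 and 73.5 FPKM in PANC-1. Its mean was 16.2-fold higher in PANC-1, a log2(FPKM + 1) difference of 3.79 (SE 0.188, limma, adjusted p = 2.43e-04). Of the other 9, MT1H, MT1HL1, MT1IP and MT4 were listed at 0 everywhere and MT1DP was the highest, at most 1.16 FPKM in a library.

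Genes beside the cluster did not share 1 direction. Of the 16 tested neighbours, 8 on each side within 1636 kb, limma called 4 higher in PANC-1 and 3 lower. Of all tested genes 20.4% were called higher and 18.4% lower, so these counts do not set the region apart. The median difference of the neighbours was -0.02. The nearest tested genes were not called: BBS2, at 45.0 kb, differed by 0.31 (SE 0.200, adjusted p = 0.287) and NUP93, at 45.9 kb on the other side, by -0.14. The nearest called gene was HERPUD1, a gene of endoplasmic reticulum stress 248 kb away, with a mean of 25.6 FPKM in the 90 line and 9.53 in PANC-1 (log2 difference -1.34, adjusted p = 0.00289). Further out, CES1, a carboxylesterase, went from 0.163 FPKM in the 90 line to 36.6 in PANC-1 (5.02, adjusted p = 1.79e-04). PLLP, a membrane protein called plasmolipin, went from 102 to 0.881 FPKM (-5.77, adjusted p = 1.79e-04). The other called neighbours were CX3CL1 (2.90), CRNDE (2.16), MMP2 (1.10) and NLRC5 (-2.33). CES1 and CX3CL1 passed the filter only through PANC-1, and PLLP and NLRC5 only through the 90 line, so a difference was built into their passing. MMP2 lost its call without either NC library, with adjusted p = 0.0680 without that of the 90 line and 0.0673 without that of PANC-1.

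**Figure D3:**
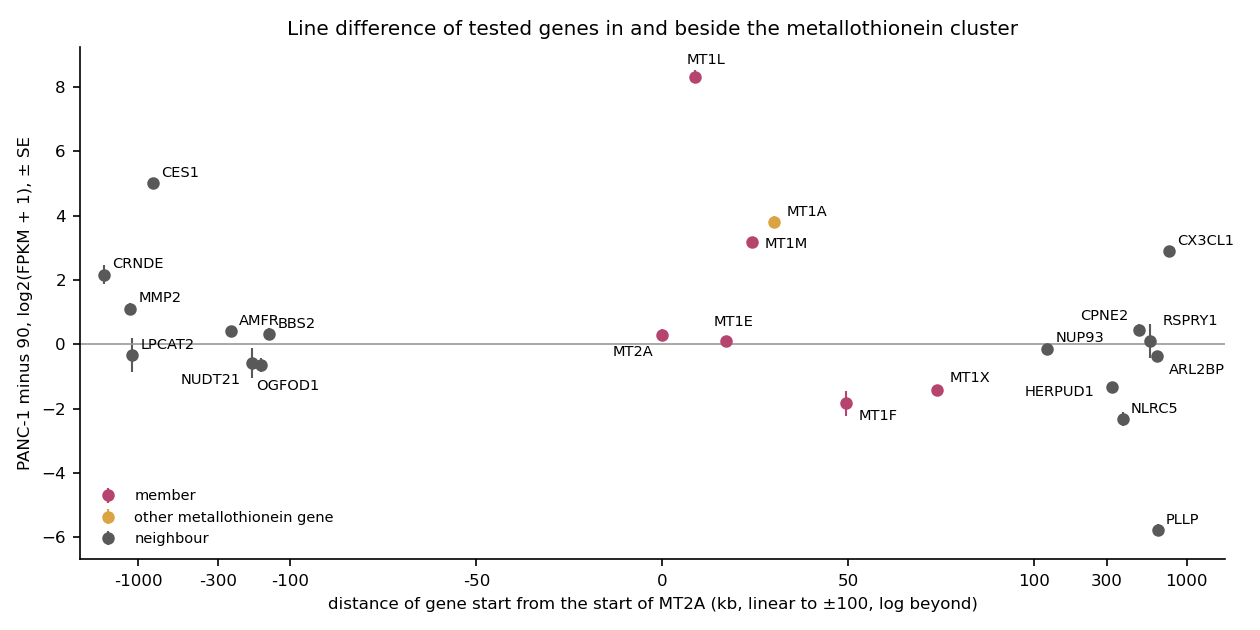
Difference between PANC-1 and the 90 line on the log2(FPKM + 1) scale, with its standard error, against the distance of each tested gene's start from that of MT2A (linear to 100 kb on either side, logarithmic beyond). MT1L, MT1M and MT1A stand above 0 and MT1F and MT1X below it, within 74 kb; MT1M is listed at 0 in the 90 line, so the height of its point depends on the pseudocount.

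MTF1, the factor that senses zinc and drives metallothionein genes, was expressed at a low level in both lines. The gene lies on the minus strand of chr1:37809567-37859620 (GRCh38). It had 2.07, 2.84 and 1.44 FPKM in the 90 line and 2.27, 2.85 and 3.90 FPKM in PANC-1. The lines overlapped, with means of 2.12 ± 0.698 and 3.01 ± 0.829 FPKM (SD, n = 3 each).

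Since MTF1 acts through metal response elements, the 250 bases before the RefSeq transcription start were searched for the core TGCACNC or TGCGCNC on both strands. RefSeq promoters (GRCh38.p14) were given for 4 of the 9 genes, MT2A, MT1X, SLC30A1 and MTF1. The promoters of MT2A, MT1X and SLC30A1 are shown because they carry the core, and that of MT1H because it held the most matches of the 5 metallothionein promoters searched although the gene was listed at 0. They run 5′ to 3′ on the gene's own strand, with the core in capitals. The windows are chr16:56608334-56608583 (plus) for MT2A, chr16:56682220-56682469 (plus) for MT1X, chr1:211579162-211579411 (minus) for SLC30A1 and chr16:56669564-56669813 (plus) for MT1H. The GENCODE v29 gene model of MT2A starts further upstream, so its window lies within that model.
MT2A promoter: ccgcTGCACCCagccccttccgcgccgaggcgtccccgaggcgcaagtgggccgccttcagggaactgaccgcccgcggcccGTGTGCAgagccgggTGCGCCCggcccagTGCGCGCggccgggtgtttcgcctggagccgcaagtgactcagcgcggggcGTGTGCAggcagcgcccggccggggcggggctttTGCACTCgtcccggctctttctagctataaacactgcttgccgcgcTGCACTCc
MT1X promoter: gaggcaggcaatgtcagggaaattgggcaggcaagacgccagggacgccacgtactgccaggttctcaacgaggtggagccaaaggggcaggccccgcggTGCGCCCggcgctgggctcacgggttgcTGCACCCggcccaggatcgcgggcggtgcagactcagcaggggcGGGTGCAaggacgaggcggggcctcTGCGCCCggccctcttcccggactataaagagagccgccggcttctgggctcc
SLC30A1 promoter: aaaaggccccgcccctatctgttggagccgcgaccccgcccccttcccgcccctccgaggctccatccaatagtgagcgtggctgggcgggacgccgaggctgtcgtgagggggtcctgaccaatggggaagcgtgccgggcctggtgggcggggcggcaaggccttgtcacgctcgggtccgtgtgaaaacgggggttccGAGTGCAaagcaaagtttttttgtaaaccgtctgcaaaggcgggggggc
MT1H promoter: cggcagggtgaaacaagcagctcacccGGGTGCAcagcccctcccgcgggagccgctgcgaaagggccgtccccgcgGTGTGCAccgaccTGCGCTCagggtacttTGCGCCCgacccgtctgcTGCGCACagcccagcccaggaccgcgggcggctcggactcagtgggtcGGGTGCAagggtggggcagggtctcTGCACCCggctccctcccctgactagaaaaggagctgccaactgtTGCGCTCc
The MT2A window held 7 matches, between 8 and 246 bases before the start, and 0.0313% of 35116 promoters held as many. MT1X held 4, between 53 and 150 bases before the start (0.37% of promoters). SLC30A1 held 1, at 49 bases (24.8% of promoters held at least 1), and these letters were not in the MTF1 window. MT1H held 8 (0.0171%). A match describes the letters only: the gene with 8 was at 0 in all 6 libraries, and the one with 7 was among the most abundant genes.

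SLC30A1, the exporter, lay in the same range in both lines. The gene is on the minus strand of chr1:211571568-211578742 (GRCh38). It had 9.81, 19.4 and 11.7 FPKM in the 90 line, and 9.58, 6.69 and 12.6 FPKM in PANC-1. The highest and the lowest value were both in siALDOA 1 libraries, and the NC libraries of the lines were close to each other. The means were 13.6 ± 5.10 FPKM in the 90 line and 9.61 ± 2.94 in PANC-1 (SD, n = 3 each). The line difference was -0.45 (SE 0.333) and turned to 0.03 with both siALDOA 1 libraries left out.

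Among the other zinc transporters, 1 importer was called between the lines. Of 9 further genes of the SLC30 family, to which SLC30A1 belongs, 4 were tested, and limma called 0 of them for the line. Their median difference was 0.02, against 0.13 for all tested genes. Of 14 importers of the SLC39 family, 11 were tested, and only SLC39A8 was called. SLC39A8, also called ZIP8, carries zinc, manganese and cadmium into cells. It had 4.47, 13.1 and 5.51 FPKM in the 90 line and 0.368, 0.112 and 0.536 FPKM in PANC-1, a mean 22.7-fold higher in the 90 line (log2 difference -2.58, SE 0.393, adjusted p = 0.00623). It passed the filter only through the 90 line, and its call was lost with both siALDOA 2 libraries left out.

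**Figure D4:**
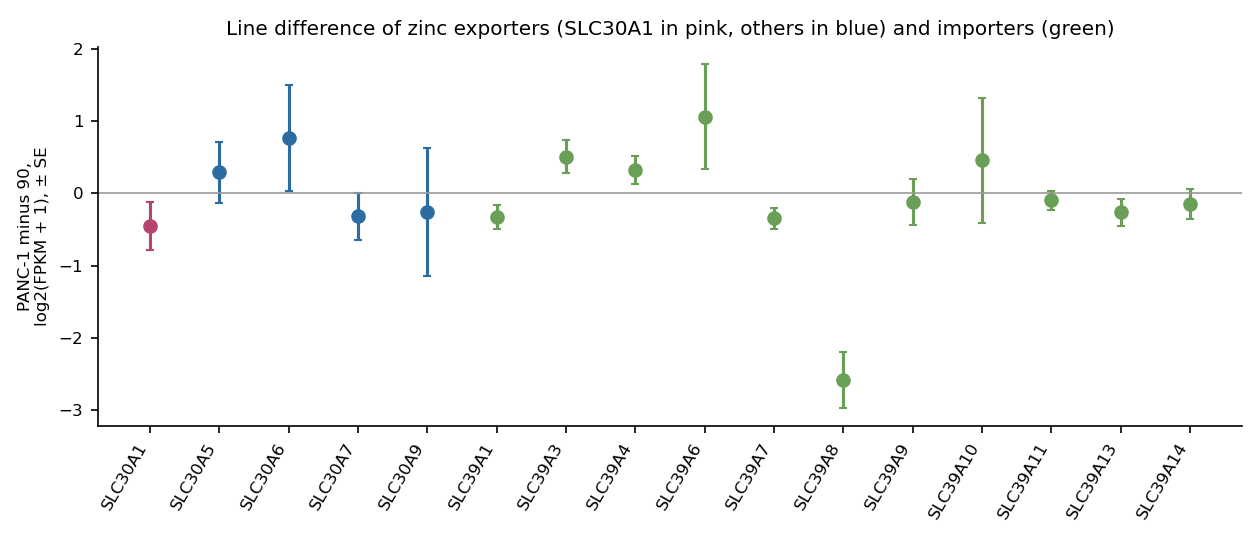
Difference between PANC-1 and the 90 line on the log2(FPKM + 1) scale, with its standard error, for SLC30A1 (pink), the other tested genes of its SLC30 family (blue) and the tested zinc importers (green). SLC39A8 lies at -2.58, and the other transporters in blue and green were not called. SLC30A1 is shown as a description, with no test.

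With siALDOA, limma called 0 genes over both lines. Of the 9 genes, 6 were read over both lines and none was called. MT1L and MT1M were read in PANC-1 alone, and MT1G was not tested. The share of tested genes called was 0% over both lines, 0% in the 90 line, 0% in PANC-1 and 0% for the difference between the lines. At an unadjusted p under 0.05 there were 43, 33, 21 and 24 genes in these comparisons. Tests within a line took the spread of its single NC library from the siALDOA libraries. The numbers of genes under 0.05 all lie below that share of the tested genes, which unchanged genes alone would give. With opposite-numbered siALDOA libraries paired across the lines, a pairing chosen after seeing the data, 897 genes fell under 0.05 over both lines. A smaller spread was built into that choice, so nothing is read from this number. ALDOA itself was not called, though at 55.3% of NC or less in every siALDOA library. The lack of calls is therefore not read as a lack of change.

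MT1E was below the NC library of its line in all 4 siALDOA libraries, as were 5.82% of tested genes. It stood at 77.4% and 87.4% of NC in the 90 line, and at 89.9% and 80.6% in PANC-1. Over both lines the log2 change was -0.26 (SE 0.120, 95% interval -0.56 to 0.05, limma adjusted p = 1). No member was above NC in all 4 libraries, as 3.39% of tested genes were.

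MT2A stood at 83.7% and 108% of NC in the 90 line, for siALDOA 1 and 2 in turn, and at 83.3% and 63.9% in PANC-1. The log2 change over both lines was -0.26 (SE 0.203, 95% interval -0.78 to 0.26, limma adjusted p = 1). The sum of the coding metallothioneins followed MT2A, at 83.8% and 105% of NC in the 90 line and 84.1% and 65.7% in PANC-1. Of the members measured in both lines, MT1X stayed closest to NC, between 88.3% and 106%, with a log2 change of -0.01 (SE 0.134, 95% interval -0.35 to 0.33, limma adjusted p = 1).

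MT1F lay on opposite sides of NC in the lines, as 9.91% of tested genes did. It stood at 122% and 150% of NC in the 90 line and at 59.3% and 25.6% in PANC-1. The log2 change was 0.40 in the 90 line and -0.98 in PANC-1 (SE 0.464 each). The difference between these changes was -1.38 (SE 0.656, 95% interval -3.19 to 0.42, limma adjusted p = 1), so it did not pass the test. In PANC-1, MT1L stood at 122% and 105% of NC and MT1M at 101% and 98.1%, with log2 changes of 0.18 (SE 0.334) and -0.01 (SE 0.304), neither called.

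For the regulator and the exporter the libraries of 1 line disagreed. MTF1 stood at 137% and 69.6% of NC in the 90 line and at 126% and 172% in PANC-1. Over both lines this gave a log2 change of 0.20 (SE 0.277, 95% interval -0.51 to 0.91, limma adjusted p = 1). SLC30A1 stood at 198% and 119% of NC in the 90 line and at 69.8% and 131% in PANC-1, a log2 change of 0.26 (SE 0.353, 95% interval -0.64 to 1.17, limma adjusted p = 1).

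The changes of SLC30A1 ran beside those of other genes of low GC content. Its longest transcript has 38.0% GC, within the lowest of 8 equal groups of tested genes by GC content. For siALDOA 1 and 2, the median change of that group was 1.40 and 0.12 in the 90 line, and -1.02 and 0.56 in PANC-1, where SLC30A1 had 0.92 and 0.23, and -0.46 and 0.36. MT2A, MT1E and MT1X, at 53.5% to 53.9% GC, lie in the sixth group, whose medians were -0.21 and 0.06 in the 90 line, and 0.13 and -0.13 in PANC-1. The part of GC content in the members' changes was not tested. The other 4 tested genes of the SLC30 family had a median change of 1.08 and -0.35 in the 90 line and of -0.73 and 0.65 in PANC-1. SLC30A9 had 2.17, 14.8 and 4.16 FPKM in the 90 line and 5.60, 1.04 and 10.2 FPKM in PANC-1, each library on the same side of NC as for SLC30A1. SLC30A5, SLC30A6 and SLC30A7 shared its side of NC in siALDOA 1 of both lines and in siALDOA 2 of PANC-1. In siALDOA 2 of the 90 line they lay below NC instead, at 5.63 against 7.89 FPKM, 1.22 against 1.99 and 0.928 against 1.33.

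**Figure D5:**
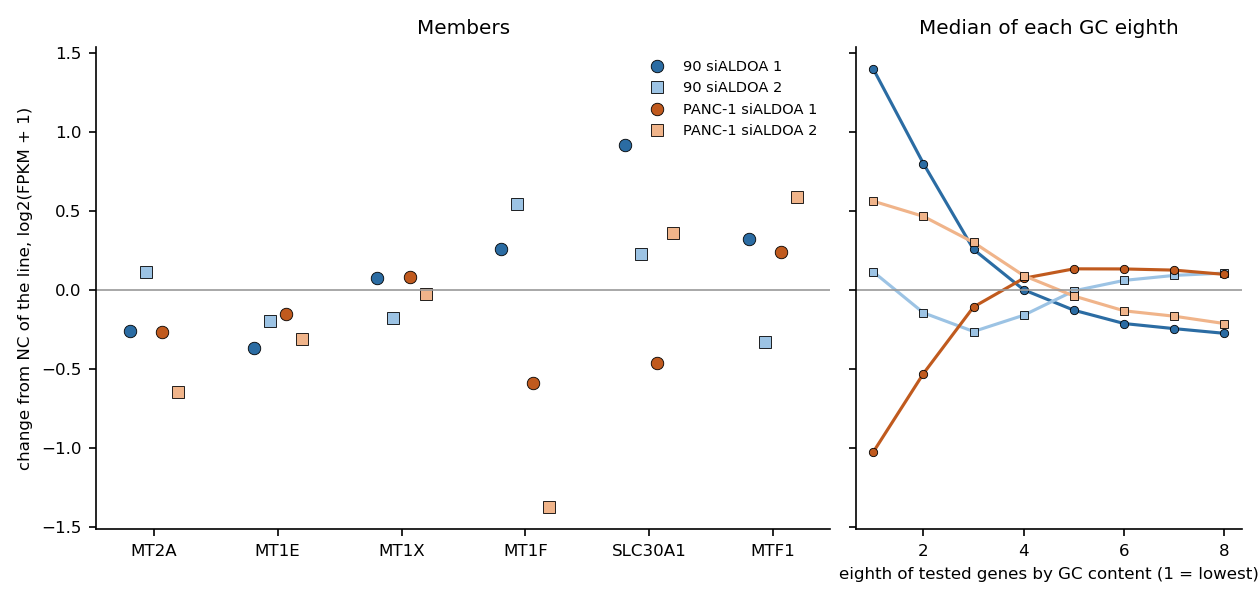
Change of each siALDOA library from the NC library of its line on the log2(FPKM + 1) scale, for the members on the left and as the median of each GC eighth of tested genes on the right. MT1E lies below 0 in all 4 libraries, and SLC30A1 has its signs in common with the lowest GC eighth.

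Genes most like the metallothionein sum were looked for over the 4 siALDOA libraries, as the smallest root mean square difference of their log2 changes from NC. MT2A, which makes up most of the sum, had 0.0287. The closest other tested genes were C9orf16 (0.0506), NDUFB7 (0.0548), TPRN (0.0581), TMEM158 (0.0619) and CENPV (0.0621). MT1E had 0.213, MT1X 0.395, MT1F 0.546, MTF1 0.734 and SLC30A1 0.770, and the median of all tested genes was 0.450. By this measure MT1F, MTF1 and SLC30A1 were further from the metallothionein sum than the median gene.

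The other metal genes are given against the background of all tested genes, of which 20.4% were called higher in PANC-1 and 18.4% lower. Of 12 copper genes 10 were tested, 5 called higher in PANC-1 and 1 lower, with a median difference of 0.38. COMMD1, a regulator of copper export, had a mean of 12.4 FPKM in the 90 line and 44.5 in PANC-1 (log2 difference 1.75, SE 0.135, limma adjusted p = 7.57e-04). ATP7B, a copper-exporting ATPase, went from 0.464 to 2.91 FPKM (1.42, adjusted p = 0.00358) and passed the filter only through PANC-1. CCS, the copper chaperone of superoxide dismutase, went from 14.3 to 33.8 FPKM (1.18, adjusted p = 0.00623). The CCS call was lost without the NC library of the 90 line (adjusted p = 0.0568) and without that of PANC-1 (0.0566).

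Of 12 iron genes 9 were tested, 3 called higher in PANC-1 and 1 lower, with a median difference of -0.12. HMOX1, heme oxygenase 1, had a mean of 10.6 FPKM in the 90 line and 87.8 in PANC-1 (log2 difference 2.96, SE 0.298, limma adjusted p = 0.00165). FTH1, the ferritin heavy chain that stores iron, went the other way, from 5346 to 1554 FPKM (-1.78, adjusted p = 0.00286). STEAP3, a ferrireductase, went from 14.0 to 38.7 FPKM (1.41, adjusted p = 0.00218).

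Metallothionein genes also respond to glucocorticoids and to stress. The glucocorticoid list held 8 genes, among them NR3C1, which encodes the receptor itself and is not counted on as an induced gene. Of the 8, 6 were tested, 2 called higher in PANC-1 and 1 lower, with a median of 0.52. NR3C1 (log2 difference -0.20, not called) is part of that median. DUSP1, a phosphatase of MAP kinases, went from 6.45 in the 90 line to 29.9 FPKM in PANC-1 (2.07, limma adjusted p = 0.00259), and TSC22D3, known as GILZ, from 8.72 to 3.09 FPKM (-1.25, adjusted p = 0.00508). SGK1, a kinase, went from 1.31 to 2.64 FPKM (0.65, adjusted p = 0.0315). TSC22D3 lost its call without the NC library of the 90 line (adjusted p = 0.0551). SGK1 lost its call without any 1 of the 6 libraries (adjusted p from 0.0675 to 0.150).

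All 12 heat shock and metal stress genes were tested, with 4 called higher in PANC-1, 2 lower and a median of 0.28. HMOX1 belongs to this list too. HSPB1, a small heat shock protein, went from 233 in the 90 line to 791 FPKM in PANC-1 (1.76, limma adjusted p = 0.00338). HSPA1B, an inducible chaperone nearly identical to HSPA1A and so of uncertain split, went from 32.5 to 8.34 FPKM (-1.83, adjusted p = 0.00167). None of these lists held a gene called for siALDOA. The smallest p of each list was 0.142 for COX17 (log2 change -0.28), 0.219 for SLC39A4 (-0.30), 0.239 for ACO1 (-0.33), 0.274 for SGK1 (0.21), 0.277 for DNAJB1 (-0.20), 0.448 for MT1A (-0.16) and 0.599 for SLC30A9 (0.52), all limma and unadjusted.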

How the data were processed

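Poly(A) RNA of 2 PDAC lines was sequenced in 6 libraries, per the labels' protocols. The authors deposited FPKM values per gene, made with HISAT2 and featureCounts on hg38 per the submitters' processing notes; no source used here gives versions, strand use or gene lengths. Of 41769 rows, 1 had no gene name and was left out. Depth was read from the steps in the values of short RNAs, of which 95.0% to 95.9% fell on whole multiples up to 8 within a tolerance of 0.03; lengths of other genes are not in the table, so no count test was run.

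Values were tested as log2(FPKM + 1), which understates changes of low genes, for the 12592 genes whose mean reached 1 FPKM. limma 3.58.1 (R 4.3.3) with an intensity trend was used two-sided, with Benjamini-Hochberg adjustment over all genes tested and calls at an adjusted p under 0.05. Line and siALDOA effects came from an additive fit with 3 residual degrees of freedom, within-line effects and their difference from 4 group means with 2. The fits were run on data simulated with known changes and noise independent between genes and libraries. Shifts shared by many genes, such as those with GC content, were not covered by that check. The members and all gene lists were chosen with earlier results of these data known. Named genes are the 9 members, up to 3 called genes with the largest line difference per list, the smallest siALDOA p per list, the 5 genes most like the metallothionein sum, and called neighbours of the cluster. Named outside this rule, after their values were seen, are the nearest neighbours BBS2 and NUP93 and the SLC30 family genes SLC30A5, SLC30A6 and SLC30A7. Marker lists covered epithelial, mesenchymal, fibroblast, leukocyte, endothelial, acinar, islet and erythroid genes. GC content, coordinates and coding sequences came from GENCODE v29, and 90.6% of tested genes had a GC value. Alternatives changed the pseudocount, filter, scaling, GC trend, variance trend, replicate block and the libraries used.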

Additional observations from a re-analysis of the deposited data

Results flagged for a closer look

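The change of MT1F with siALDOA differed between the lines by -1.38 on the log2(FPKM + 1) scale (PANC-1 minus 90). It drew attention because both siALDOA libraries of the 90 line lay above their NC library (log2 changes 0.26 and 0.54) and both of PANC-1 lay below theirs (-0.59 and -1.37). The difference itself did not pass the limma test (adjusted p = 1). Over the alternatives the adjusted p went no lower than 0.178.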

How the results depend on the processing

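None of the members' siALDOA changes was called under any alternative run, and the lowest adjusted p was 0.662 over both lines, 0.150 in the 90 line and 0.528 in PANC-1. The direction held in 120 of 131 alternatives over both lines, 101 of 113 in the 90 line and 138 of 150 in PANC-1. The cause of the turns was not tested. Over both lines, MT1X gave 0.059 as TPM, 0.011 with quantile normalization, 0.0045 with the GC trend removed (with or without the replicate block) and 0.082 with both siALDOA 2 libraries left out. In PANC-1, MT1M gave 0.024 with median-ratio scaling, 0.077 as TPM and 0.032 with the GC trend removed, MT1X gave -0.0010 with the GC trend removed, and SLC30A1 gave 0.029 as TPM and 0.18 with the GC trend removed. In the 90 line, MT2A gave 0.022 with quantile normalization, MTF1 gave 0.0023 with a pseudocount of 2, 0.028 as TPM and 0.017 with the GC trend removed, and with that trend removed MT1X gave 0.010 and SLC30A1, at 0.57 as deposited, gave -0.16. These GC values were the same with the replicate block.

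Leaving out 1 library at a time gave, over both lines, -0.98 to 0.40 for MT1F, -0.058 to 0.051 for MT1X, -0.0060 to 0.41 for MTF1, -0.051 to 0.57 for SLC30A1, -0.36 to 0.027 for MT1A, -0.78 to 0.12 for ACO1 and -0.46 to 1.51 for SLC30A9. In the 90 line it gave -0.18 to 0.078 for MT1X, -0.26 to 0.11 for MT2A and -0.33 to 0.32 for MTF1, and in PANC-1 -0.025 to 0.012 for MT1M, -0.024 to 0.085 for MT1X and -0.46 to 0.36 for SLC30A1. It left 2422 to 4110 of 4882 genes called between the lines.

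For PANC-1 against 90, MT1E gave -0.019 with median-ratio scaling and SLC30A1 0.034 with both siALDOA 1 libraries left out. Genes called between the lines numbered 1149 with both siALDOA 2 libraries left out; of the named genes outside the members, MT1A, COMMD1, HMOX1, DUSP1, HSPB1, CES1, PLLP and CX3CL1 were still called there and the others were not. MMP2 also lost its call with median-ratio scaling, and SGK1 lost its call in 14 of 21 alternatives. Median-ratio scaling moved the median gene from 0.13 to 0.03 and the calls from 2567 higher and 2315 lower to 1527 and 1989. Genes called for siALDOA numbered 17 over both lines with both siALDOA 1 libraries left out. Without a filter, 27007 genes were fitted, and 38 were called in the 90 line and 49 in PANC-1, all of them lower. With the filter at a mean of 1 FPKM, 0 were called in either line. As TPM the metallothionein sum was, NC first and then siALDOA 1 and 2, 4632.4, 4221.2 and 4798.4 in the 90 line and 6267.4, 5356.6 and 4584.5 in PANC-1. With MT1L included it was, in the same order, 2434.3, 2040.5 and 2561.3 FPKM in the 90 line. In PANC-1 it was then 3728.8, 3289.6 and 2610 FPKM, so the lines no longer overlapped on that scale. The coding sum after median-ratio scaling was 2643, 1808.3 and 2954 in the 90 line and 3084.3, 2907.1 and 1893.7 in PANC-1. The values fitted for MT1L and MT1M between the lines depend on the pseudocount.

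Deviations of same-numbered siALDOA libraries correlated at -0.86 between the lines over genes, with the GC trend left in. This value includes the shifts shared by genes of like GC content, so it does not tell what the replicate numbers mark. The replicate block called 3258 genes between the lines, 5006 with the GC trend removed, and 0 for siALDOA. A crossed pairing, added after seeing the data and so with a smaller spread built in, called 7594 genes between the lines and 0 for siALDOA. Depth limits what can be said of MT1L, MT1M and MT1G where they had few or 0 fragments.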
